A study of Mus musculus with 6 samples.

Results

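The 9 chemokine receptor genes Ccr1, Ccr2, Ccr6, Ccr7, Cx3cr1, Cxcr2, Cxcr4, Cxcr5 and Cxcr6 were chosen by symbol, out of 31017 symbols in the count matrices, and were read in the leukocytes of single-cell RNA libraries of mouse dermal collecting lymphatic vessels. All 9 symbols were found. The material was the collecting vessel running from the inguinal to the axillary lymph node of C57BL/6 mice, removed along with the tissue around it after Evans Blue had been injected into the inguinal node, digested with collagenase I, elastase, dispase and DNaseI, and treated with a red cell lysis buffer. Young mice were 6 weeks old, middle-aged mice 12 months and aged mice 18 months, with 1 library labelled male and 1 labelled female at each age. The aged mice came from the National Institute on Aging and the source of the others is not given in the labels, so the aged group and its supplier cannot be told apart. How many mice made up a library is not given in the sources used here, and p-values therefore measure only the spread between these 6 samples.

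Chemokine receptors are G protein-coupled receptors of the cell surface. A cell that carries them turns up a gradient of the matching chemokine, and the set of receptors on a leukocyte largely decides which tissue it enters, where it stays and when it leaves. In and around lymphatic vessels the best known case is CCR7: dendritic cells and T cells that carry it follow CCL21 from the lymphatic endothelium into the vessel and on to the draining node. CXCR2 brings neutrophils and CCR2 brings monocytes into tissue, CX3CR1 marks patrolling monocytes and many resident macrophages, CXCR5 and CCR6 place B cells and some T cells within lymphoid organs and at barriers, CXCR6 marks T cells and innate lymphoid cells of tissues, and CXCR4 answers to CXCL12 on most leukocytes.

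The receptor genes lie on 4 chromosomes in the GRCm38 annotation. Cxcr6 (ENSMUSG00000048521, 9:123806475-123811760, plus strand), Ccr1 (ENSMUSG00000025804, 9:123962124-123968692, minus strand) and Ccr2 (ENSMUSG00000049103, 9:124101950-124113557, plus strand) sit within one 307.1 kb stretch. Cx3cr1 (ENSMUSG00000052336, 9:119901616-120069879, minus strand) and Cxcr5 (ENSMUSG00000047880, 9:44511787-44561877, minus strand) are elsewhere on the same chromosome. Ccr7 (ENSMUSG00000037944, 11:99144196-99155077, minus strand), Ccr6 (ENSMUSG00000040899, 17:8236043-8257141, plus strand), Cxcr2 (ENSMUSG00000026180, 1:74153989-74161246, plus strand) and Cxcr4 (ENSMUSG00000045382, 1:128588199-128592293, minus strand) are on other chromosomes. The annotated span of Cx3cr1 is 168.3 kb and overlaps 9 other genes, 3 of them on its own strand, so its UMIs are less certain than those of the other members. Cxcr6 overlaps Fyco1, and Cxcr5 overlaps Bcl9l, in both cases on the opposite strand.

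Genes of this stretch were read in different cells: Ccr1 was highest in neutrophils, while Cxcr6 had no UMI in the 3 neutrophil sums of at least 20 cells. Cxcr2, on another chromosome, was highest in the same cells as Ccr1. The 250 bases before the start of these 3 genes are shown for that reason, from RefSeq on GRCm38.p6, 5′ to 3′ on the gene's own strand. Capitals mark matches on either strand to 4 short motifs that were searched. The motif AGGAAG is the core bound by ETS factors such as PU.1. The motif TTNNGNAA is of the type bound by C/EBP factors. The motif AGGTCA is bound by nuclear receptors. The motif AGATAA is of the type bound by the factor that Gata3 encodes.
Ccr1 (9:123968693-123968942, minus strand): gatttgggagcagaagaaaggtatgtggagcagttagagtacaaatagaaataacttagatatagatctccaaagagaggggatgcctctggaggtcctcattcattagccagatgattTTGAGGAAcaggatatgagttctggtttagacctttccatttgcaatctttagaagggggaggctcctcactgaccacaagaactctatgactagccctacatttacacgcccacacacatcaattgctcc
Cxcr2 (1:74153744-74153993, plus strand): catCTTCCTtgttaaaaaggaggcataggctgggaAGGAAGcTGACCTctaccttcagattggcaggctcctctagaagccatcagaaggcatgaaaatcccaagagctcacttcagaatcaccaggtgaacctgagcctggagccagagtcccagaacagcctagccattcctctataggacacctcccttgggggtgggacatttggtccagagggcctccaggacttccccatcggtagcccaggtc
Cxcr6 (9:123806227-123806476, plus strand): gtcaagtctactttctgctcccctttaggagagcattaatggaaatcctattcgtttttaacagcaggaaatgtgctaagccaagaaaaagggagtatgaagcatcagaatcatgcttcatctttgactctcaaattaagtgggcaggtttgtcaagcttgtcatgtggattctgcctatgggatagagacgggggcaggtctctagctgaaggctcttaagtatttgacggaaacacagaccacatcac
In Ccr1 the capitals are a C/EBP type match at -131. In Cxcr2 they are ETS core matches at -247 and -215 and a nuclear receptor match at -208, and the Cxcr6 window held none of the 4 motifs. Of 32841 RefSeq windows of the same length, 29.5% held the ETS motif, 36.9% the C/EBP motif, 14% the nuclear receptor motif and 9.99% the Gata3 type motif, so matches of this kind are common and are a description only. Promoter entries were matched for 7 of the 9 receptors.

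Values are counts of unique molecular identifiers (UMIs, 1 per captured transcript) summed over the cells of a class in a library, and given as CPM, counts scaled to the same total of UMIs in every sum. The libraries held 9616652 to 28921825 UMIs and 998 to 7939 cells, with a median of 2507 to 7483.5 UMIs per cell. Of 23898 cells, 8596 fell in 12 leukocyte classes. The young male library gave 2228 of them, the young female 2087, the labelled middle-aged male 2315, the labelled middle-aged female 293, the aged male 987 and the aged female 686. The Xist RNA of the inactive X chromosome and Y-linked genes went against the labelled sex of both middle-aged libraries (Xist 1406 CPM in the library labelled male and 0.255 CPM in the library labelled female), and they are called by their labels throughout. Pairs of libraries shared 0 to 12 cell barcodes.

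The classes were named from marker genes, and each name is to be read as "-like": macrophages (4426 cells), T cells (969), monocytes (575), B cells (554), type 2 conventional dendritic cells (502), neutrophils (251), innate lymphoid cells with natural killer cells (216), type 1 conventional dendritic cells (131), migratory dendritic cells (50) and plasmacytoid dendritic cells (43). Groups led by Lyz1 and Ear2 (772 cells) and by Spp1 and Arg1 (107 cells) kept the names of those genes. The 27 chemokine receptor genes took no part in the clustering or the naming. Cells of a class came unevenly from the libraries. Of the B cells, 404 were in the young female library, as were 436 T cells and 35 migratory dendritic cells. Of the monocytes, 380 were in the young male library, and 143 neutrophils were in the labelled middle-aged female library.

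The 12 leukocyte classes held 36.0% of all cells and most UMIs of 8 receptors: 96.2% for Ccr1, 92.1% for Ccr7, 91.7% for Ccr6 (of 84 UMIs), 91.3% for Cxcr5, 91.0% for Cxcr2, 91.0% for Cxcr6, 90.6% for Ccr2 and 88.9% for Cxcr4. For Cx3cr1 the share was 43.8% of 562 UMIs. At least 1 of the 9 receptors had a UMI in 94.0% of neutrophils, 85.6% of Lyz1 Ear2 cells, 80.7% of monocytes, 71.3% of B cells, and 52.2% of both macrophages and T cells. At least 2 receptors had a UMI in 69.3% of neutrophils and in 10.3% of macrophages, shares that move with UMIs per cell (medians 1795 and 2190). The map of mean levels shows 1 or 2 classes at the top for most receptors, with Cxcr4 spread over nearly all.

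**Figure D1:**
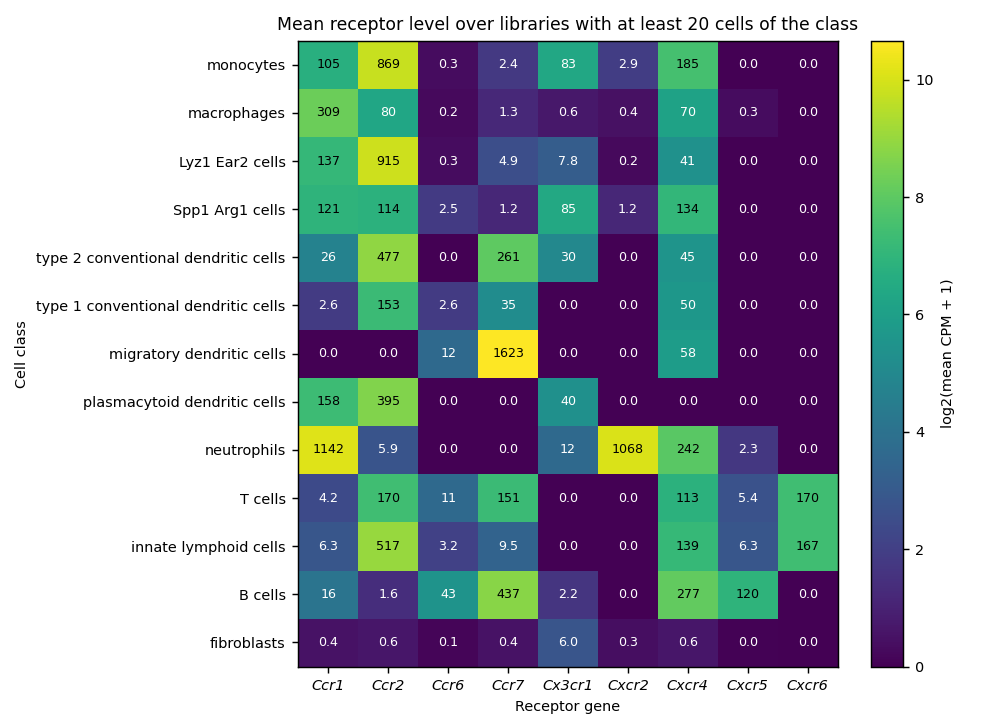
Mean CPM of the 9 chemokine receptors (columns) in the 12 leukocyte classes and fibroblasts (rows), averaged over libraries with at least 20 cells of the class. Colour is log2(mean CPM + 1) and the printed numbers are mean CPM. Cxcr2 stands out in neutrophils (1068), Ccr7 in migratory dendritic cells (1623), Cxcr5 in B cells (120) and Cxcr6 in T cells (169.5) and innate lymphoid cells (167).

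Receptors of inflammatory recruitment were led by neutrophils and monocytes. Ccr1, a receptor for CCL3 and CCL5, read 1416 CPM in neutrophils of the labelled middle-aged female library, 977 in the aged male and 1034 in the aged female, a mean of 1142 ± 238 (SD, n = 3 libraries). The same 3 libraries gave Cxcr2, the receptor for CXCL1 and CXCL2, at 922, 1083 and 1200 CPM (1068 ± 140). The young libraries and the labelled middle-aged male held 3 neutrophils at most, so no young level was had. Of all 543 Cxcr2 UMIs, 89.3% were in these 251 cells, which are 1.05% of all cells. Neutrophils lay apart from every other class for both genes: Ccr1 was next highest in macrophages (309 ± 129, n = 6), and Cxcr2 in monocytes was 2.88 CPM. A Ccr1 UMI was found in 77.7% of neutrophils and a Cxcr2 UMI in 66.9%, against 0.178% and 0.11% of fibroblasts, which are taken here as the background of free RNA (median depth 3601 UMIs). Thinned to 1000 UMIs per cell, the neutrophil shares were 64.9% and 53.1%.

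Ccr2, the receptor for CCL2 and CCL7, was high in 2 myeloid groups. Monocytes read 921 CPM in the young male library, 701 in the young female, 714 in the labelled middle-aged male, 642 in the aged male and 1366 in the aged female (869 ± 297, n = 5). Lyz1 Ear2 cells read 791, 783, 582, 977 and 1443 CPM in the same libraries (915 ± 326, n = 5), and the ranges of both groups overlapped. In each the aged female library was the highest. Innate lymphoid cells (517 ± 114, n = 4) came next and lay below every monocyte value. Type 2 conventional dendritic cells (477 ± 285, n = 5), T cells (170 ± 113, n = 6) and type 1 conventional dendritic cells (153 ± 17.3, n = 3) followed, each overlapping its neighbour in the order. Macrophages were at 79.5 ± 51.8 (n = 6) and neutrophils at 5.87 CPM, and these 2 ranges did not overlap. A Ccr2 UMI was found in 75.8% of Lyz1 Ear2 cells, 67.3% of monocytes, 43.5% of innate lymphoid cells and 9.60% of macrophages, and in 0.229% of fibroblasts. Thinned to 1000 UMIs the first 4 shares were 51.4%, 51.1%, 35.6% and 5.85%.

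Cx3cr1, the receptor for the membrane-bound chemokine CX3CL1, was low everywhere. Monocytes read 77.8, 73.3, 60.6, 89.9 and 115 CPM over the 5 libraries above (83.3 ± 20.6), and the Spp1 Arg1 cells 66.9 in the young male and 102.5 in the aged female library. Type 2 conventional dendritic cells lay below the whole monocyte range (0 to 58.9, n = 5). Macrophages read 0.601 CPM, and T cells had 0 UMIs of 1706133, which allows up to 1.758 CPM. A Cx3cr1 UMI was found in 13.4% of monocytes (7.52% thinned). Fibroblasts (0.78%) are no background for this gene, since they held 272 of its 562 UMIs. Only 5 of 4426 macrophages had one.

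Receptors of lymphoid homing were led by migratory dendritic cells and B cells. Ccr7 reached 1623 CPM in migratory dendritic cells, where only the young female library held 20 cells or more. All 50 cells pooled gave 2088 CPM (exact 95% Poisson interval 1845 to 2353, counting error only), and 46 of 50 cells had a UMI, against 0.17% of fibroblasts. B cells read 623 CPM in the young female library, 277 in the labelled middle-aged male, 428 in the labelled middle-aged female, 421 in the aged male and 438 in the aged female (437 ± 123, n = 5). Type 2 conventional dendritic cells read 282, 291, 377 and 306.5 CPM in the young (male, then female), labelled middle-aged male and aged male libraries but 49.6 in the aged female (261 ± 124, n = 5). T cells spanned 10.5 to 410.1 CPM (151 ± 146, n = 6), and type 1 conventional dendritic cells were at 35.0 ± 8.12 (n = 3). The ranges of B cells, type 2 conventional dendritic cells and T cells overlapped.

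Cxcr5, which brings B cells to follicles, was read in B cells and little elsewhere: 153, 75.6, 58.4, 140.2 and 175 CPM over the 5 B cell libraries (120 ± 50.7), which hold 79.7% of its 138 UMIs. No other class overlapped this range. Ccr6, the receptor for CCL20, was highest in the same cells but varied more, at 80.4, 0, 19.4, 10.8 and 105 CPM (43.2 ± 46.7), and its range overlapped that of T cells (11.4 ± 9.88, n = 6). B cells with a UMI came to 17.2% for Cxcr5 and 7.76% for Ccr6, with 0.017% and 0.042% in fibroblasts. At a median of 1160 UMIs per B cell, these shares miss many cells that carry the transcript.

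Cxcr6, the receptor for CXCL16, had no UMI in the myeloid or B cell sums. T cells read 90.3 CPM in the young male library, 67.0 in the young female, 94.1 in the labelled middle-aged male, 305 in the labelled middle-aged female, 293 in the aged male and 167 in the aged female (169.5 ± 106, n = 6). Innate lymphoid cells read 57.5, 167, 265 and 178 CPM in the young (male, then female), labelled middle-aged male and aged male libraries (167 ± 85.0). The ranges of both classes overlapped, and they held 74.9% and 15.8% of the gene's 335 UMIs. Cxcr4, the receptor for CXCL12, was the broadest member. Its means ran from 277 ± 193 CPM in B cells (n = 5) and 241.5 ± 91.7 in neutrophils (n = 3) through 185 ± 44.4 in monocytes, 139 ± 52.0 in innate lymphoid cells, 113 ± 73.6 in T cells and 69.5 ± 35.8 in macrophages to 40.8 in Lyz1 Ear2 cells, and every class overlapped its neighbour in the order. The per-library plot shows this spread.

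**Figure D2:**
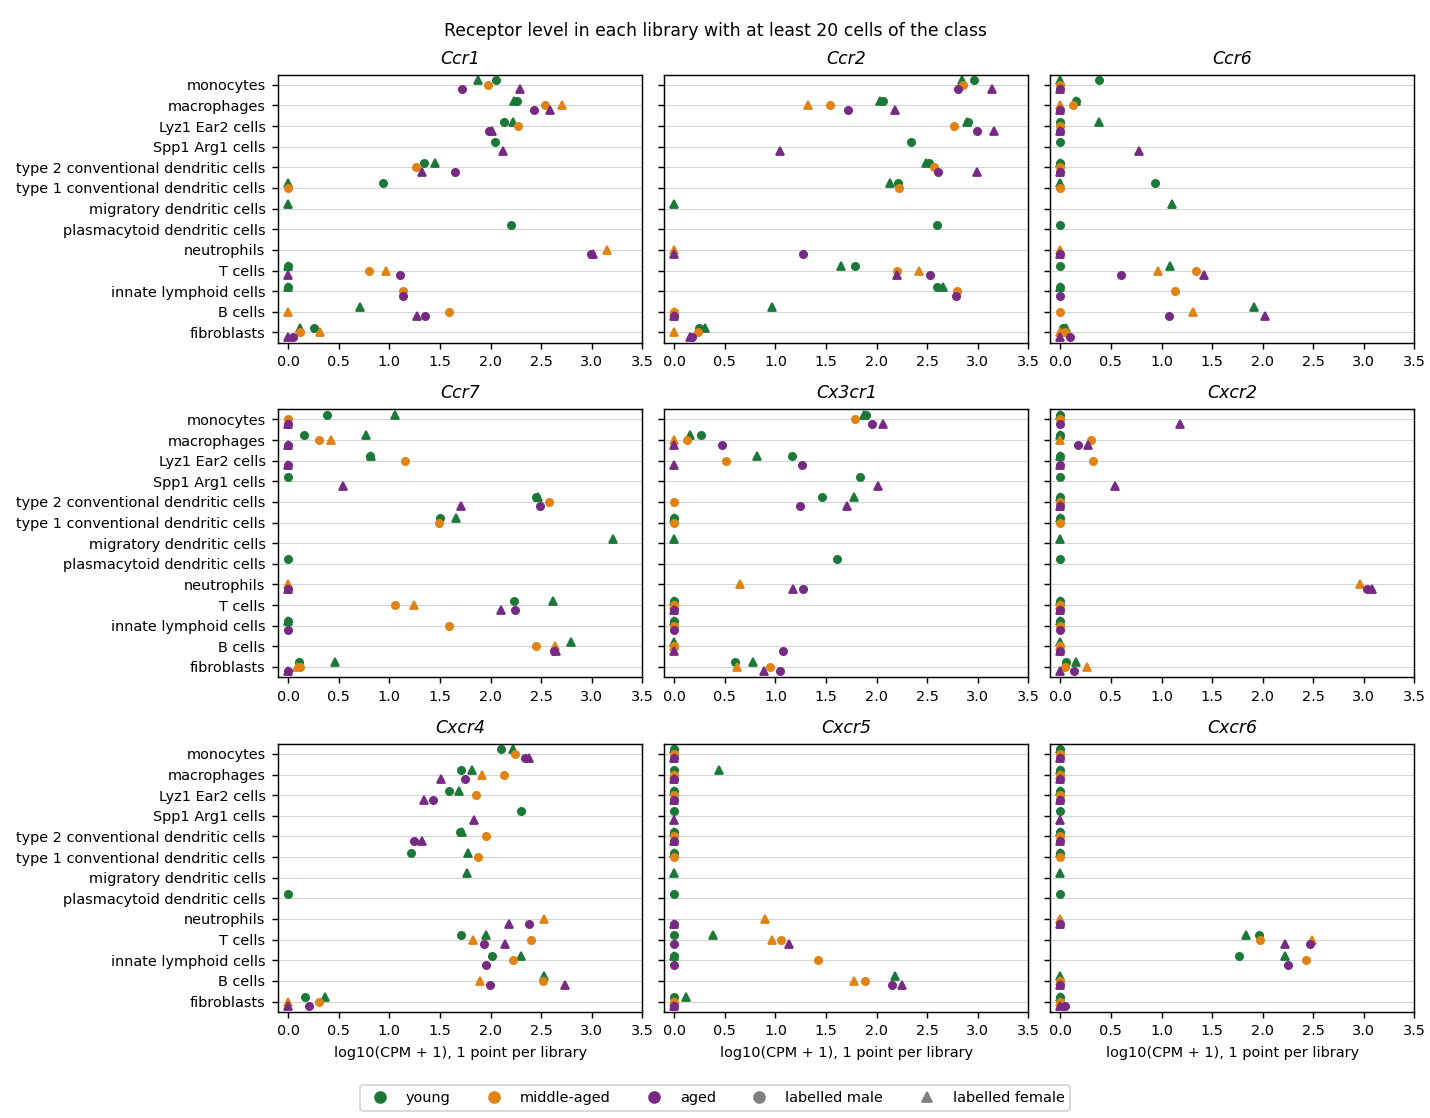
Levels of each receptor by class, 1 panel per receptor and 1 point per library with at least 20 cells of the class, on a log10(CPM + 1) axis. Colour gives the age and marker shape the labelled sex. Neutrophils stand alone for Cxcr2 and B cells for Cxcr5, while the Cxcr4 points of neighbouring classes overlap.

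Classes were then compared within one model of 46 class sums with library as a block (edgeR's quasi-likelihood test, Benjamini-Hochberg adjusted over 6076 genes). Of 54 receptor tests in 6 contrasts, 22 passed, 14 higher and 8 lower, that is 40.7%, beside 23.8% of all gene tests. The classes were clustered from the same cells, though without the receptors, and the receptors were chosen as leukocyte genes. These shares are therefore a description. Cxcr6 had 0 UMIs in monocytes, type 2 conventional dendritic cells and macrophages alike, so it could not pass in their contrasts. Monocytes against macrophages called 4 of 9 receptors (26.7% of all genes). Monocytes were higher in Cx3cr1 (log2 fold change 6.24, SE 0.53, adjusted p = 1.03e-12 by edgeR), Ccr2 (3.31, SE 0.36, adjusted p = 1.04e-10) and Cxcr4 (1.32, SE 0.31, adjusted p = 0.000817), and lower in Ccr1 (-1.32, SE 0.27, adjusted p = 8.17e-05). Type 2 conventional dendritic cells against macrophages also called 4 of 9, at 43.8% of all genes, which is about the background share. There Ccr7 (7.62, SE 0.50, edgeR adjusted p = 3.57e-18), Cx3cr1 (4.92, SE 0.59, adjusted p = 3.04e-09) and Ccr2 (2.62, SE 0.36, adjusted p = 1.77e-08) were higher and Ccr1 was lower (-3.16, SE 0.32, adjusted p = 4.39e-12).

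Migratory against type 2 conventional dendritic cells called 1 of 9 receptors, beside 7.21% of all genes. Ccr2 had no UMI in the 1 sum of migratory cells and was at least 11.3-fold lower there (adjusted p = 0.0183 in edgeR), against the level that 3 counts would give. Ccr7 was 1.71 higher on the log2 scale (SE 0.60) and did not pass (adjusted p = 0.0764 in edgeR). With 1 library on the migratory side, these cells are assumed to vary as the other classes do.

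Neutrophils against monocytes called 5 of 9 (38.5% of all genes). Cxcr2 (8.32, SE 0.64, edgeR adjusted p = 2.11e-11), Ccr1 (3.28, SE 0.33, adjusted p = 1.4e-11) and Cxcr4 (1.22, SE 0.42, adjusted p = 0.0186) were higher, and Ccr2 (-7.03, SE 0.94, adjusted p = 2.91e-08) and Cx3cr1 (-2.43, SE 0.94, adjusted p = 0.0379) were lower. Cxcr2 in monocytes and Ccr2 in neutrophils rest on 2 UMIs each, and the pooled ratios were 585-fold for Cxcr2 (exact 95% counting interval 161 to 4847) and 217-fold for Ccr2 (59.9 to 1792, monocytes over neutrophils). The Cx3cr1 call was lost in 7 of 11 alternatives, 4 of which leave out a library (young male, adjusted p = 0.0627 in edgeR; labelled middle-aged female, 0.068; aged male, 0.171; aged female, 0.166). That of Cxcr4 was lost without the labelled middle-aged male (0.0716) or female library (0.147), and DESeq2 gave adjusted p = 0.391 for Cxcr2.

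Innate lymphoid cells against T cells called 2 of 9 receptors, beside 5.07% of all genes. Ccr2 was higher (1.58, SE 0.44, edgeR adjusted p = 0.0209) and Ccr7 lower (-4.34, SE 0.89, adjusted p = 0.000809), while Cxcr6 differed by 0.22 (SE 0.37, adjusted p = 0.861). Ccr7 had 3 UMIs in the innate lymphoid sums, and the pooled ratio of T cells over them was 24.1-fold (exact 95% counting interval 8.18 to 117). Without the young female library neither passed in edgeR (adjusted p = 0.184 and 0.0587), and without the labelled middle-aged male one Ccr2 did not (0.15). DESeq2 gave Ccr2 0.0574, and sums of at least 50 cells gave Ccr7 0.0908 in edgeR.

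B cells against T cells called 6 of 9 (21.7% of all genes). B cells were higher in Cxcr5 (4.61, SE 0.68, edgeR adjusted p = 2.14e-06), Ccr6 (1.83, SE 0.60, adjusted p = 0.0206), Ccr7 (1.41, SE 0.38, adjusted p = 0.00376) and Cxcr4 (1.19, SE 0.33, adjusted p = 0.00509). They were lower in Ccr2 (-4.83, SE 0.84, adjusted p = 9.16e-06) and in Cxcr6, which was at least 37.5-fold lower by the 3 counts rule over the group (adjusted p = 5.52e-08). Without the young female library, which holds most B cells, Ccr6 (0.49) and Cxcr4 (0.158) did not pass in edgeR, nor did Ccr6 without the aged female (0.0646). DESeq2 did not call Ccr6 (0.238), Ccr7 (0.0995), Cxcr5 (0.442) or Cxcr6 (0.525), and sums of at least 50 cells gave Ccr7 0.0808 in edgeR.

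Within the lymphocytes the receptors split between clusters, whose names are their leading genes. Values here pool all libraries, with exact 95% Poisson intervals that cover counting error only, and no test. Libraries held the clusters unevenly, and differences between clusters also hold differences between libraries. Of 351 Lef1 Dapl1 T cells, 309 were in the young female library, and of 80 Satb1 Bach2 T cells, 43 in the aged male. Ccr7 was 495.5 CPM (439 to 557) in the Lef1 Dapl1 T cells and 477 (384 to 586.5) in the Satb1 Bach2 T cells. It was 108 in the Foxp3 Ctla4 T cells, 51.6 in the Gzmk Cd8a T cells and 6.04 in the Trdc Cd163l1 T cells. Between the Trdc Cd163l1 and the Lef1 Dapl1 T cells, Ccr2 and Cxcr6 went the other way. Trdc Cd163l1 T cells, led by the constant gene of the delta T cell receptor chain, read 525.5 CPM of Ccr2 (450 to 610) and 579.9 of Cxcr6 (501 to 668), against 8.94 and 14.3 in the Lef1 Dapl1 T cells. Itgae Itga1 T cells held Cxcr6 (162, from 94.2 to 259) with little Ccr2 (9.51, from 0.241 to 53.0).

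Innate lymphoid cells divided too. Those with markers of group 2 cells read 619 CPM of Ccr2 (496 to 764) and 363 of Cxcr6 (270 to 477), and those with natural killer markers 423.5 of Ccr2 (338 to 524) and 9.97 of Cxcr6 (1.21 to 36.0). Thus Ccr2 was read in both and Cxcr6 mainly in the first. Cxcr4 was highest in natural killer cells (219), Gzmk Cd8a T cells (202) and Foxp3 Ctla4 T cells (196). Ccr6 had 8 UMIs in the Foxp3 Ctla4 T cells (41.2 CPM, from 17.8 to 81.1) and 9 in the Trdc Cd163l1 T cells (27.2, from 12.4 to 51.6), too few to order.

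**Figure D3:**
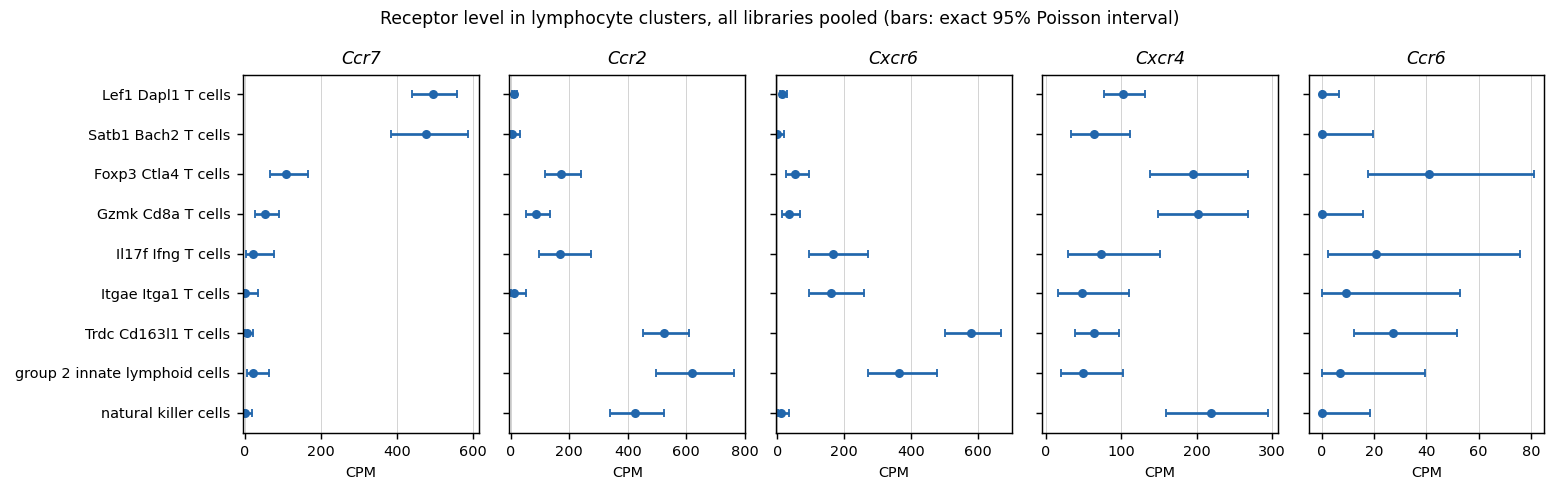
Pooled CPM of Ccr7, Ccr2, Cxcr6, Cxcr4 and Ccr6 in 9 clusters of T cells and innate lymphoid cells, with exact 95% Poisson intervals as bars. Ccr7 is high in the Lef1 Dapl1 and Satb1 Bach2 T cells (495.5 and 477), while Ccr2 and Cxcr6 are high in the Trdc Cd163l1 T cells (525.5 and 579.9) and group 2 innate lymphoid cells (619 and 363).

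The same division showed in single T cells. Cells with a UMI of a receptor and cells without were summed per library, where each side had at least 10 cells, and fixed genes were read in both. A cell without a UMI may still carry the transcript. Of all T cells 206 had a Ccr7 UMI, and the means come from the 4 libraries with enough of them. They read more Lef1 (438 against 204 CPM), Tcf7 (475 against 264) and S1pr1 (420 against 158.5) in 4 of 4 libraries, genes of naive and recirculating T cells. Klf2, another gene of recirculating cells, was 269 against 280 and lower in 3 of 4. They read less Cd44 (40.6 against 247), Icos (76.8 against 348), Rora (104.5 against 584.5), Ccr2 (9.33 against 180) and Cxcr6 (14.2 against 186), again in 4 of 4.

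Of all T cells 130 had a Cxcr6 UMI, and 5 libraries gave means. Icos (681 against 277 CPM), Rora (1218 against 503), Cd163l1 (395 against 61.6), Il17a (274 against 13.3) and Ccr2 (419 against 101) were higher in 5 of 5 libraries. Il17a encodes the cytokine interleukin 17A. Lef1 (33.0 against 203), S1pr1 (77.9 against 262), Klf2 (115.5 against 307) and Ccr7 (44.6 against 176) were lower in 5 of 5. Median depth was 1984 UMIs in cells with Cxcr6 and 1493 in cells without. Only 16 T cells had a Ccr6 UMI, and no library held enough of them.

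**Figure D4:**
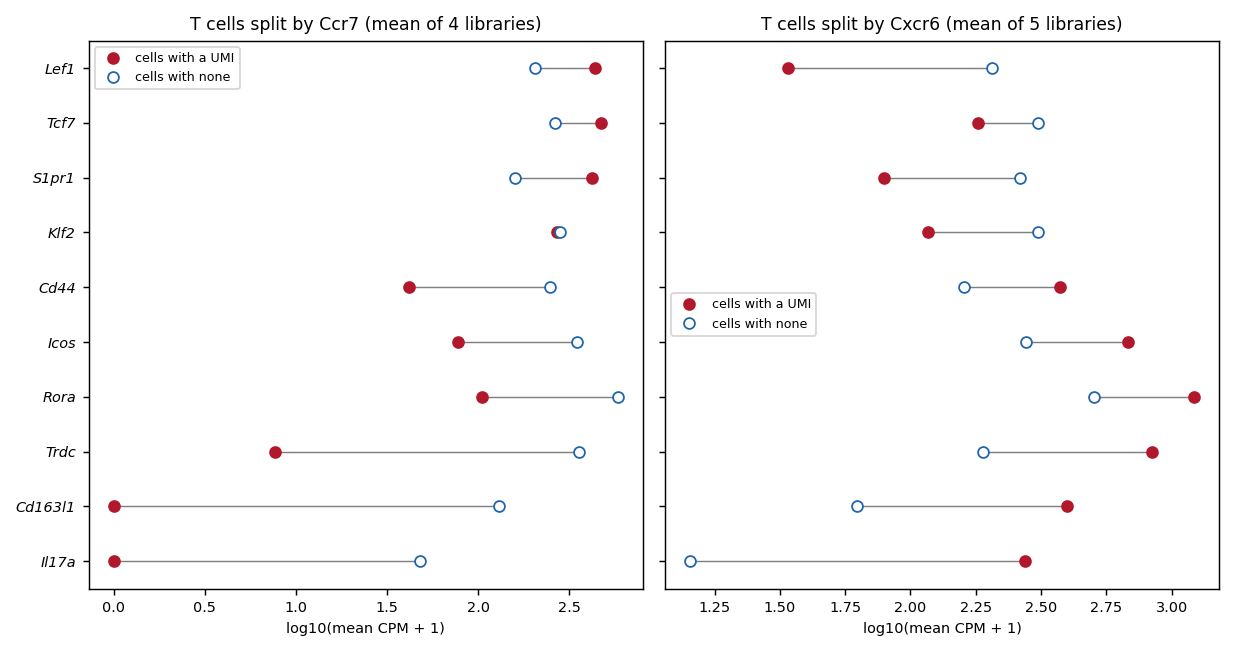
Fixed genes in T cells with and without a UMI of Ccr7 (4 libraries) or of Cxcr6 (5 libraries), as log10(mean CPM + 1). Lef1, Tcf7 and S1pr1 are higher with Ccr7, and Icos, Rora, Cd163l1 and Il17a are higher with Cxcr6.

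Macrophages and dendritic cells were split in the same way. Macrophages with a Ccr2 UMI (425 in all, means of 5 libraries) read more of the class II antigen presentation genes H2-Aa (4245 against 2458 CPM), H2-Eb1 (2895 against 1409) and Cd74 (9771 against 6287) in 5 of 5 libraries. They read less of the resident macrophage genes Lyve1 (1049 against 1339), Timd4 (95.7 against 189), Folr2 (1666 against 1926) and Mrc1 (2000 against 2497), also in 5 of 5. Other genes of resident macrophages were split between the libraries: Cd163 was 1211 against 1156 (higher in 3 of 5) and Cbr2 893 against 953 (lower in 3 of 5). Median depth was 2575 UMIs with Ccr2 and 2161 without. Dendritic cells of all classes with a Ccr7 UMI (192 in all, means of 4 libraries) read more Cacnb3 (64.6 against 6.78), Socs2 (78.3 against 4.69), Cd40 (48.9 against 22.3) and Relb (127 against 39.7), genes of maturing dendritic cells, and less Ccr2 (148 against 356), Cd209a (555 against 764) and Flt3 (66.4 against 97.2), in 4 of 4. Migratory dendritic cells are among those with Ccr7. For monocytes with Cx3cr1 (77 cells in all) the means come from 2 libraries. There Spn, which encodes CD43 of patrolling monocytes, was higher (108.5 against 30.2) and Vcan lower (22.2 against 226) in 2 of 2. Nr4a1 was also higher in 2 of 2 (430 against 304). Other genes of patrolling monocytes were mixed: Ace was lower in 2 of 2 (40.0 against 74.4), and Treml4 (10.6 against 22.5) and Fcgr4 (105 against 123) were split between the 2 libraries. With all libraries pooled, Ace (59.8 against 33.2) and Treml4 (76.1 against 19.5) were higher with Cx3cr1 and Fcgr4 was lower (109 against 146). Ly6c2, Plac8 and Chil3, like Vcan used here as monocyte markers, did not follow Vcan. Ly6c2 (903 against 575), Plac8 (1976 against 1479) and Chil3 (157 against 219) were each split between the 2 libraries. Pooled, each was higher with Cx3cr1 (685 against 603, 1652 against 1286 and 201 against 124).

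Macrophage clusters differed in receptor levels as well. Since libraries held them unevenly, levels are set side by side within a library. Ccr1 in the Ccl3 Ccl4 cluster read 227 CPM in the young male library, 353 in the young female, 543 in the labelled middle-aged male and 395 in the aged male. In the Cd209f Cd209g cluster it read 63.9, 99.4, 205 and 193 in those libraries, lower in each. Ccr2 in the Saa3 Cd93 cluster read 422 CPM in the young male library and 566 in the young female, above the other 5 clusters there (50.3 to 253 and 52.4 to 202). At Leiden resolution 1 these cells shared a cluster with the monocytes, and they were set apart by their clusters at resolution 2. All 10 listed macrophage markers were raised in them, and the muscle genes Acta1 and Tnnc2 were among their leading genes.

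Levels at the 3 ages were compared within 6 classes, with age and labelled sex in the model. Members that passed the filter on low counts numbered 3 in macrophages, 3 in Lyz1 Ear2 cells, 3 in B cells, 4 in monocytes, 4 in T cells and 5 in type 2 conventional dendritic cells. None of the 66 receptor tests passed in edgeR, beside 0.107% of all gene tests over the same contrasts. At an unadjusted p under 0.05 there were 18, and DESeq2 called 3. The model holds the labelled sex, which Xist and the Y-linked genes contradict in both middle-aged libraries. With those labels exchanged 5 passed in edgeR: Ccr1 (adjusted p = 0.0103) and Ccr2 (0.00656) in macrophages, middle-aged against young, Ccr2 (0.0234) and Cxcr4 (0.0242) in macrophages, aged against middle-aged, and Ccr7 in T cells, middle-aged against young (0.00811). These fits have 1 or 2 residual degrees of freedom. On simulated T cell sums of this design 62.8% of genes changed 4-fold were found. The simulated spread was set and not estimated from these sums, so this share is not the power in the real data. Neutrophils, innate lymphoid cells and type 1 conventional dendritic cells were not fitted: with labelled sex in the model no residual degree of freedom was left. A fit without the sex term was not run for them. Spp1 Arg1 cells had 1 young and 1 aged sum, and migratory and plasmacytoid dendritic cells 1 young sum each, too few for a fit even without the sex term.

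In T cells Ccr7 came nearest to the threshold. It read 171 CPM in the young male library, 410.1 in the young female, 10.5 in the labelled middle-aged male, 16.5 in the labelled middle-aged female, 175 in the aged male and 125 in the aged female. Both middle-aged libraries, with 2 UMIs each, were below all others, and the young and aged ranges overlapped. Middle-aged against young gave a log2 fold change of -4.60 (SE 0.69, adjusted p = 0.0984 in edgeR). It passed in 10 of 15 alternatives, with log2 fold changes from -5.39 to -3.68 and adjusted p from 6.56e-07 to 0.808. The Ccr7-rich Lef1 Dapl1 cells were 29% and 70.9% of young T cells, 1.9% and 0% of middle-aged and 2.5% and 12.3% of aged ones. Their part in the result was not tested.

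Ccr2 in T cells read 60.2 and 43.2 CPM in the young libraries, 157 and 264 in the labelled middle-aged, and 335 and 159 in the aged. All older values were above the young ones. Aged against young was 1.99 (SE 0.54, adjusted p = 0.728 in edgeR) and middle-aged against young 1.89 (SE 0.55, adjusted p = 0.503). Without the labelled middle-aged female library (24 T cells) the first passed (1.79, adjusted p = 0.00922 in edgeR), and without the labelled middle-aged male one the second did (2.59, adjusted p = 0.0133). Cxcr6 in the same cells, given above, was highest in the labelled middle-aged female and aged male libraries, where Trdc Cd163l1 cells were 50% and 32.5% of T cells, against 8.7% to 12.3% in the other 4. Its middle-aged against young value was 1.19 (SE 0.62, adjusted p = 0.676 in edgeR), -0.39 without the labelled middle-aged female library, and 2.13 (adjusted p = 0.0313) without the labelled middle-aged male one. The part of these clusters was not tested.

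In macrophages Ccr1 read 182 CPM in the young male library, 168 in the young female, 348 in the labelled middle-aged male, 505 in the labelled middle-aged female, 266 in the aged male and 383 in the aged female. Both young libraries were lowest. Middle-aged against young was 1.50 (SE 0.35, adjusted p = 0.277 in edgeR) and aged against young 0.87 (SE 0.34, adjusted p = 1). Ccr2 read 115, 108, 33.7, 19.8, 51.4 and 150 CPM in the same order. The middle-aged pair was lowest, the aged male lay between it and the young pair, and the aged female was above all others. Middle-aged against young was -1.69 (SE 0.44, adjusted p = 0.342 in edgeR), and aged against middle-aged 1.44 (SE 0.46, adjusted p = 0.576).

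Cxcr4 read 50.4, 65.0, 135, 80.9, 54.8 and 31.5 CPM in those macrophages, highest in the middle-aged pair. Middle-aged against young was 1.09 (SE 0.37, adjusted p = 0.406 in edgeR) and aged against middle-aged -1.53 (SE 0.37, adjusted p = 0.472). The calls changed when a library was left out. In middle-aged against young, Ccr1 and Ccr2 passed in edgeR without the aged male (adjusted p = 0.00182 and 0.000152), the aged female (0.00245 and 0.000177) or the labelled middle-aged male library (0.0398 and 0.0438). Cxcr4 passed without the aged male (0.0292) or the aged female (0.029). In aged against middle-aged, Ccr2 (2.29, 0.000188) and Cxcr4 (-2.04, 0.00421) passed without the aged male. DESeq2 called Ccr1 (0.00827) and Ccr2 (0.0431) in middle-aged against young.

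The macrophages of each library were also of different clusters. Ccdc152 Cbr2 cells were 72.9% of young male macrophages and 12.5% or less elsewhere. Il10 Gdf15 cells were 52% in the labelled middle-aged male, and Ccl3 Ccl4 cells 59.3% in the labelled middle-aged female. Within the Cd209f Cd209g cluster, an alternative chosen after seeing the data, Ccr1 read 63.9, 99.4, 205, 193 and 376 CPM in the young (male, then female), labelled middle-aged male and aged (male, then female) libraries, and aged against young was 1.76 (adjusted p = 0.0431 in edgeR). Within the Ccl3 Ccl4 cluster the aged against middle-aged value of Ccr2 turned to -1.78. The 18 dissociation and stress genes summed to 16940 to 25710 CPM in macrophages, lowest in the aged female and highest in the labelled middle-aged male. Their part in these values was not tested.

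**Figure D5:**
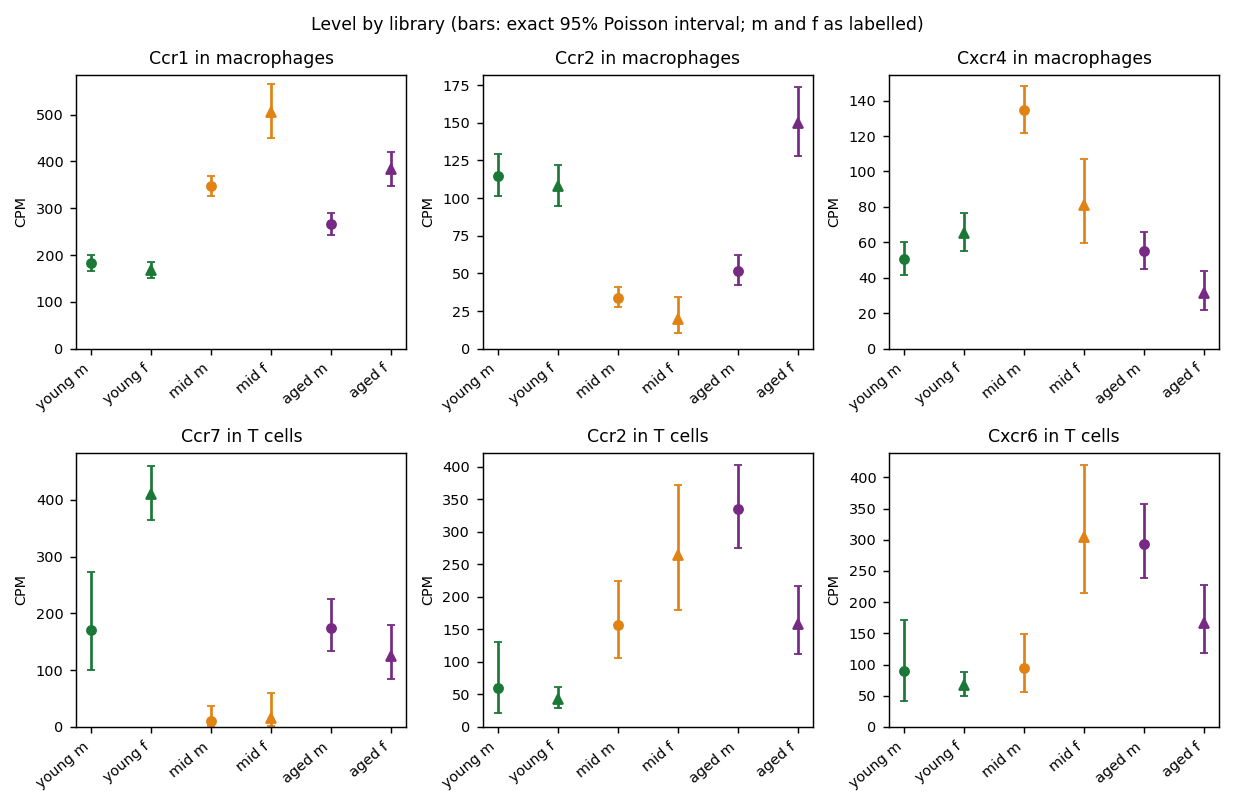
Levels of Ccr1, Ccr2 and Cxcr4 in macrophages and of Ccr7, Ccr2 and Cxcr6 in T cells, 1 point per library with its exact 95% Poisson interval, on a CPM axis from 0. The young pair is lowest for Ccr1 in macrophages (182 and 168) and for Ccr2 in T cells (60.2 and 43.2), and the middle-aged pair is lowest for Ccr7 in T cells (10.5 and 16.5).

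In the other classes the age values overlapped more. In type 2 conventional dendritic cells the aged female library (25 cells) read 982 CPM of Ccr2, against 306.5 to 399.5 in the other 4, and had the low Ccr7 given above. Of 5 receptors tested in these cells 0 passed, beside 0% of all genes in aged against young and 0.0735% in each of middle-aged against young and aged against middle-aged. Of 4 receptors in monocytes 0 passed, beside 0.828% of all genes in aged against young, 0.223% in middle-aged against young and 0.127% in aged against middle-aged. Of 3 in Lyz1 Ear2 cells 0 passed, beside 0.095%, 0.269% and 0.237% in the same contrasts. Of 3 in B cells 0 passed, beside 0.169%, 0.0563% and 0.282%. In macrophages and T cells 0% of all genes passed in each contrast. In aged monocytes the heat shock genes Hspa1a (-3.22, SE 0.55, adjusted p = 5.4e-05 in edgeR) and Hspa1b (-2.56, SE 0.58, adjusted p = 0.00792) were lower than in young ones, but not in DESeq2 (adjusted p = 0.105 and 0.999). Their part in the receptor levels was not tested.

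The other genes of the pathway were read in the same contrasts, and counts of members are beside the background shares given above. Of 18 other receptors 9 were tested between classes. Monocytes against macrophages gave 3 higher and 2 lower, among them the atypical receptor gene Ccrl2 (1.31, SE 0.25, adjusted p = 3.98e-05 in edgeR) and the complement receptor gene C5ar1 (-1.68, SE 0.24, adjusted p = 1.8e-07). Neutrophils against monocytes gave 2 higher and 2 lower, with Ccrl2 (3.29, SE 0.30, adjusted p = 1.07e-12 in edgeR) and C5ar1 (2.39, SE 0.33, adjusted p = 5.33e-08) higher. Cmklr1, the chemerin receptor gene, was among the lower ones. Innate lymphoid against T cells gave 3 higher and 0 lower, with Ccr8 (3.04, SE 0.81, adjusted p = 0.0225 in edgeR) and Ccrl2 (2.87, SE 0.49, adjusted p = 5.07e-05), and B against T cells gave 0 and 0.

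Of 30 signalling and migration genes 26 were tested. Monocytes against macrophages gave 10 higher and 3 lower (median log2 fold change 0.37, beside -0.04 over all genes), among them the receptor kinase gene Grk3 (2.78, SE 0.42, adjusted p = 5.79e-07 in edgeR) and the actin regulator Coro1a (1.37, SE 0.21, adjusted p = 5.68e-07). B against T cells gave 0 higher and 9 lower (median -0.33, beside -0.08), including Rgs1 (-3.44, SE 0.49, adjusted p = 1.4e-07) and Rgs10 (-3.78, SE 0.50, adjusted p = 3.37e-08), which encode proteins that switch off G protein signals of receptors like these. Across ages, 0 of 69 tests of other receptors passed, and 1 of 399 of the signalling list: Itgal, an integrin subunit, was higher in aged than in young monocytes (2.03, SE 0.54, adjusted p = 0.0327 in edgeR, but 0.999 in DESeq2).

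Ligands of the receptors were read in the same libraries. Of the 21 ligand genes tested, neutrophils against monocytes gave 4 higher and 8 lower. Cxcl2 (2.78, SE 0.45, adjusted p = 2.09e-06 in edgeR) and Ccl3 (2.32, SE 0.49, adjusted p = 0.000145) were among the higher ones. Among the lower ones were Ccl9 (-3.47, SE 0.41, adjusted p = 1.41e-09 in edgeR), Ccl2 (-3.22), Pf4 (-4.52) and Ccl7 (-3.375). The highest mean of Cxcl12, the Cxcr4 ligand, was in blood endothelium (2028 ± 861.5 CPM, n = 6), that of Ccl21a, a Ccr7 ligand, in lymphatic endothelium (193.6 ± 401, n = 5), and that of Cxcl16, the Cxcr6 ligand, in migratory dendritic cells (904, 1 library). Ccl21a stood with an SD above its mean.

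The genes whose level followed each receptor most closely were found over 19 classes of all cells, as a Pearson correlation of log2(mean CPM + 1), given as a description: the classes share libraries and differ in depth. Cxcr2 lay with Il1f9 (r = 0.9898), Nlrp12 (0.9875) and Fpr1 (0.9845), the last a receptor for bacterial peptides on neutrophils. Cxcr6 lay with Sh2d1a (0.9993), Gm2682 (0.9963) and Cd40lg (0.9948), Ccr1 with Cyp4f18 (0.8855), and Ccr2 with Cysltr1 (0.8597), a leukotriene receptor gene. Cxcr5 lay with Gm6093 (0.9263), and less closely with the complement receptor gene Cr2 (0.894). Il21r, the interleukin 21 receptor gene, was first for both Ccr6 (0.9076) and Ccr7 (0.8034). Cxcr4 lay with Ncf4 (0.9328), and Cx3cr1, less closely, with Cd300c2 (0.7632).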

How the data were processed

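The deposited count matrices hold raw UMI counts for each gene and barcode. The authors used Cell Ranger 3.0.2 with the mm10 build, per the submitters' processing notes, which also name Seurat without a version. The labels name 10x 3′ v2 chemistry, while each matrix lists 6794880 barcodes, the number of a later kit. Gene IDs (31053, of which 71 share a symbol) were summed to 31017 symbols.

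Barcodes had to show 500 genes or more and no more than 10% mitochondrial UMIs, and 590 of 24488 (2.41%), marked by Scrublet at 6% expected doublets, were removed. Clustering used scanpy 1.11.5 (2000 variable genes, 30 components, 15 neighbours, Leiden resolution 1, with 27 chemokine receptor genes left out) under Python 3.11.15, and leukocyte clusters were clustered again. UMIs were summed per library and class of at least 20 cells (50592 to 2993704 UMIs per sum), and tested with edgeR 4.0.16 under R 4.3.3 (TMM, filterByExpr, quasi-likelihood F test, Benjamini-Hochberg adjusted p under 0.05). DESeq2 1.42.0, RLE factors, no filter, other sex labels, doublets kept, other cell and mitochondrial limits, free RNA subtraction, Leiden resolution 2 and leaving out each library were alternatives. Free RNA, from barcodes of at most 50 UMIs, made up 0 to 8.29% of a sum.

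Members, gene lists and splits were chosen with earlier results of these data known. Named genes were the 9 receptors, up to 4 list genes per contrast and direction by smallest p, the fixed genes of each split, and the 3 genes most like each receptor. The list symbol Adrbk1 was not matched, and a few genes that the rule names are not reported here. Coordinates are from GENCODE vM21 and promoters from RefSeq (GRCm38.p6). Tests were tried on simulated counts: of genes changed 4-fold, 62.8% of 199 were recovered in T cells, aged against young (3240 genes, 2 false calls), and 95.1% of 182 in B against T cells (2813 genes, 7 false calls). Only well-counted genes were changed, and the spread was set, not estimated, and was the same for all genes. Apart from these changes the simulated sums differed only in depth.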

Additional observations from a re-analysis of the deposited data

Results flagged for a closer look

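For some receptors the libraries of 2 ages did not overlap in 2 classes but lay in opposite order. None of these age differences passed in its own class in the main edgeR fit. Some passed in alternatives given above. Ccr2 in macrophages did so with the middle-aged sex labels exchanged (adjusted p = 0.00656 in edgeR) and with either aged library left out. The difference between the classes was not tested. Ccr1 was 149 CPM higher in aged than in young macrophages (325 against 175 CPM) and the difference was -50.9 CPM in Lyz1 Ear2 cells (99.6 against 151). Ccr2 was 159 CPM higher in middle-aged than in young T cells (210 against 51.7) and the difference was -84.4 CPM in macrophages (26.8 against 111). Cxcr4 was 81.8 CPM higher in aged than in young monocytes (228 against 146), and the difference was -19 CPM in Lyz1 Ear2 cells (23.6 against 42.6) and -31.8 CPM in type 2 conventional dendritic cells (18.1 against 49.9). With 1 or 2 libraries per age, many class pairs were looked at.

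Cx3cr1 was read outside the leukocytes. Fibroblasts gave a mean of 5.96 CPM (3.01 to 10.1 over the 6 libraries), which is 272 of 562 UMIs, in 92 of 11799 cells. Lymphatic endothelium gave 12.7 ± 22.5 CPM (0 to 52.1, 14 UMIs). Barcodes of at most 50 UMIs held Cx3cr1 at 3.2 to 27.1 CPM, and in 1 library the fibroblast level lay above even this level of undiluted free RNA, as did the lymphatic endothelium in 1. The share of free RNA in these sums was not estimated. The annotated gene overlaps 9 others, and the part of these was not tested.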

How the results depend on the processing

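The count of receptor calls between ages was 0, and 0 with RLE size factors, doublets kept, at most 5% mitochondrial UMIs or free RNA subtracted. It was 3 with DESeq2, 6 of 123 with no filter on low counts, 5 with the middle-aged sex labels exchanged, 1 with sex left out, 3 with at least 50 cells per sum, 1 within the Cd209f Cd209g and 2 within the Ccl3 Ccl4 macrophage cluster, and 0 to 6 when each library was left out in turn. The cause was not tested. Single receptors between ages were followed only in chosen contrasts. These were of Ccr1, Ccr2 and Cxcr4 in macrophages and of Ccr7, Ccr2 and Cxcr6 in T cells. The other age tests were not followed singly. Of 192 alternatives for single receptors between ages, 150 kept the call and direction, 39 came past the threshold and 3 reversed: Cxcr6 in T cells, middle-aged against young, to -0.39 with at least 50 cells per sum and without the labelled middle-aged female library (fewer samples), and Ccr2 in macrophages, aged against middle-aged, to -1.78 within the Ccl3 Ccl4 cluster. The Cxcr6 value ranged from -0.39 to 2.13 over the libraries left out. Between classes the count was 17 to 23 against 22 in the main fit of 54 tests, and 217 of 240 single alternatives kept their call. All 127 alternatives for the levels moved a mean by at most 1 SD over libraries. Leaving out 1 library cannot move a mean by more than that, so those alternatives could not have failed. The limit was also wide: Ccr6 in B cells ranged from 27.7 to 61.4 CPM around 43.2. Over all genes, macrophages middle-aged against young went from 0 calls to 60 with DESeq2, 261 with no filter and 358 without the aged female library; aged against middle-aged from 0 to 49 with DESeq2, 174 with the middle-aged sex labels exchanged and 393 without the aged male; aged against young from 0 to 108 without the aged female. T cells, aged against young, went from 0 to 39 without the labelled middle-aged female, and monocytes, aged against young, from 26 to 3 with DESeq2. No paired analysis was possible because the labels give no replicate numbers that tie libraries across ages. The limits are few libraries, 84 Ccr6, 138 Cxcr5 and 335 Cxcr6 UMIs in all, and sums as small as 20 cells.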

Other observations

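Some ligand genes were called between ages in monocytes, where no receptor passed. The 10 macrophage markers summed to 16060 and 14550 CPM in the young monocyte sums, 8738 in the middle-aged and 5713 and 6723 in the aged, and their part in these values was not tested. Cxcl1, a CXCR2 ligand, was higher in aged than in young monocytes (log2 fold change 2.14, SE 0.59, adjusted p = 0.0479 in edgeR) and in middle-aged ones (2.45, SE 0.61, adjusted p = 0.0447). The CCR2 ligand Ccl7 (-2.10, SE 0.54, adjusted p = 0.028) and the CXCR6 ligand Cxcl16 (-2.66, SE 0.73, adjusted p = 0.0483) were lower in aged monocytes. Cxcl9 in monocytes and Ccl17, a CCR4 ligand, in Lyz1 Ear2 cells were also lower in aged than in young libraries (adjusted p = 0.000799 and 0.00158 in edgeR). Both were at 0 in each aged sum, and Cxcl9 was read in the young female library alone, so no fold is given. DESeq2 called Cxcl9 (adjusted p = 0.0174) and no other of these genes. With sex left out of the model none of these contrasts passed, and with RLE factors Cxcl1 (0.0556 aged, 0.0612 middle-aged) and Cxcl16 (0.0575) did not. Over all ages and classes, 2 ligand tests were higher and 6 lower of 219, all of them in monocytes or Lyz1 Ear2 cells. Of the tests of all genes in the age contrasts, 0.107% passed.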
